A study of Mus musculus with 24 samples.

Results

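The comparison described here was that of adult diet in mammary tumors of late onset. It took 18 of the 24 tumors in the series, chosen by their labels alone. Of these, 10 came from mice that ate a high saturated animal fat diet (HFD) as adults, 6 of them kept on HFD throughout (the HFD group) and 4 moved to it from a low-fat diet (LFD-HFD). The other 8 came from mice that ate the low-fat diet (LFD) as adults, 5 kept on it throughout (the LFD group) and 3 moved to it from HFD (HFD-LFD). Diets began at 3 weeks of age and were switched at 9 weeks, so each side held both pubertal diets, and the comparison asked how adult diet related to expression with pubertal diet taken into account. All mice were BALB/c females given the carcinogen 7,12-dimethylbenz[a]anthracene (DMBA) first at 5 weeks of age, and a late tumor was one detected 23 weeks or more after DMBA. Each tumor RNA was hybridized to 1 Agilent array of 2 colors beside a reference RNA pooled from 11 mouse cell lines. The labels do not say that each tumor came from a separate mouse, so the p-values measure only the spread between these tumors.

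Mammary tumors induced by DMBA in mice vary in histology, from glandular carcinomas that keep luminal features to adenosquamous ones with islands of keratinizing cells. Dietary fat reaches a tumor as fatty acids and lipoproteins, which cells take up, oxidize, store in droplets or sense through nuclear receptors such as the PPARs and LXRs. The mammary gland lies in a fat pad, so RNA from a tumor sample can also come from adipocytes, vessels, fibroblasts and leukocytes. In bulk tissue, fewer cells of a type and less RNA per cell cannot be told apart. Of 12 tested genes of epithelia in general, 10 gave tumor signal well over background on all 18 arrays.

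Values are log2 ratios of cyanine 5 over cyanine 3, and a difference is adult HFD minus adult LFD in log2 units. The labels place the tumor in cyanine 5, which opposes the study's methods text, where tumor RNA carries cyanine 3. Between the late arrays a spot's SD had a median of 0.415 (log2) for cyanine 5 against 0.173 for cyanine 3, and cyanine 5 lay further from the median array on 18 of 18 arrays, so the ratio was read as tumor over reference. The arrays lay on 6 slides read in 3 scan sessions. Session 1 held 4 LFD and 4 HFD tumors, session 2 held 1 LFD-HFD and 2 HFD-LFD tumors, and session 3 alone held all 4 groups (2 HFD, 1 LFD, 3 LFD-HFD and 1 HFD-LFD). In session 3 the cyanine 5 signal was dimmed in a block of rows at one edge of slide 6 and at the other edge of slide 7. These values were set missing, and 46.8% of the 20139 genes tested lay in such rows. The share of probes well above background in the tumor channel was 65.4% to 75.4% in adult LFD and 66.4% to 89.1% in adult HFD tumors, where HFD replicates 2 and 3 had 87.6% and 89.1%. The same pair had the most similar profiles of all pairs (r = 0.745 over 10719 centered genes). The deposited names of LFD-HFD replicate 4 and HFD-LFD replicate 3 share a number although their diets differ, and their profiles correlated at -0.306.

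No gene passed an adjusted p of 0.05 for adult diet (0 of 20139, 0%, limma with Benjamini-Hochberg adjustment), where adjusted p was nowhere below 0.9998. Without adjustment, 683 genes had p under 0.05, of which 380 (1.89%) were higher and 303 (1.5%) lower in adult HFD tumors. Differences were small for most genes, with an SD over genes of 0.278 log2 units and a median of 0.0053. Tumors of the 2 adult diets did not overlap for 4 genes (0.0199%): Rspo1 was higher, and Rasd2, Tecpr2 and Cdkn2aipnl were lower, in every adult HFD tumor measured. Rasd2 and Tecpr2 had values on 14 arrays and Rspo1 on 15, and fewer values make overlap less likely. Over 10719 genes with a value on all 18 arrays, adult diet took up 5.47% of the variation between tumors and pubertal diet 7.16%. Whether the diet was kept or switched, which largely coincided with session, took up 9.46%, scan session 16.4% and slide 33.3%. An even share of the 17 degrees of freedom would be 5.88% for each diet term, 11.8% for session and 29.4% for slide.

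The genes with the smallest p and the same sign in both pubertal diets, 12 in each direction, are given as values, since none passed the test. On the lower side they included genes that cells switch on when oxygen is short. Hypoxia-inducible factors (HIF) are marked for destruction by prolyl hydroxylases while oxygen is present, and without it they bind a short DNA core and raise genes of glycolysis, blood supply and pH control. The promoters of the 4 genes of this kind with the smallest p are shown so that the core letters can be seen. The windows are RefSeq sequence on GRCm38.p6, from 250 bases before to 50 bases after the gene start, 5′ to 3′ along the gene, with the letters ACGTG or GCGTG in capitals wherever they occur on either strand, overlaps included.
Egln3 (chr12:54203825-54204124, minus strand): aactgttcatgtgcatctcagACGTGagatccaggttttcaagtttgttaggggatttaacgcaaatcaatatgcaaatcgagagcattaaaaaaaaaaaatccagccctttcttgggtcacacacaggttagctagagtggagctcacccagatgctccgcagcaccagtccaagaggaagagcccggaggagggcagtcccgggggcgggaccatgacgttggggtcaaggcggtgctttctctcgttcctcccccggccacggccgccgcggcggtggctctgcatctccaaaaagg
Ankrd37 (chr8:45999801-46000100, minus strand): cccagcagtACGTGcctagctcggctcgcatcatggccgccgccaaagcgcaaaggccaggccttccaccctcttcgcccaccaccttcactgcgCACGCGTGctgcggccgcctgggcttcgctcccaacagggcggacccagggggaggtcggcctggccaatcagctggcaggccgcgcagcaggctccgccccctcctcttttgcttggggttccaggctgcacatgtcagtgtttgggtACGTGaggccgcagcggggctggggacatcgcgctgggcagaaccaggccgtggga
Car9 (chr4:43506776-43507075, plus strand): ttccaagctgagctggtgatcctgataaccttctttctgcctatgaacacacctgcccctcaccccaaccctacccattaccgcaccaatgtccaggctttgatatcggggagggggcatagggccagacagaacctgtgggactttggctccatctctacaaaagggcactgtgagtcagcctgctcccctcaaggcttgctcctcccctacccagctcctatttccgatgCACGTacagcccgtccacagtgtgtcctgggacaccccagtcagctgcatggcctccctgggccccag
Pgk1 (chrX:106186850-106187149, plus strand): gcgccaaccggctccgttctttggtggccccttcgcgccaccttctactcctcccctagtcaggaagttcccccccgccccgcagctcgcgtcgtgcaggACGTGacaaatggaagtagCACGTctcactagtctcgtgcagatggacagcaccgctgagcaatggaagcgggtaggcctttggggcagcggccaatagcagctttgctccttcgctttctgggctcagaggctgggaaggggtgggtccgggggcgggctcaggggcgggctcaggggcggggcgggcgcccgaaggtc
Egln3 and Car9 held 1 match of ACGTG each, Pgk1 held 2, and Ankrd37 held 2 of ACGTG and 2 of GCGTG that overlap each other. Such letters are common, since 43.8% of all 32851 windows held a match. Among the 32 tested hypoxia-induced genes, 26 had a window and 24 of those held a match (92.3%), beside 46.7% of all 27025 genes with a window. The list was written as genes induced by hypoxia, so its share describes that choice and not these tumors. A match is a description of letters, not a bound site.

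Egln3, one of the prolyl hydroxylases and itself raised by HIF, ran from -1.36 to 0.80 (median -0.25) in the 10 adult HFD tumors and from 0.15 to 2.07 (median 0.89) in the 8 adult LFD tumors. The medians lay on opposite sides of 0 and the groups overlapped. Its difference was -1.42 ± 0.33 (SE), -1.35 in pubertal LFD and -1.49 in pubertal HFD, and its second probe gave -1.40 ± 0.34. Ankrd37, an ankyrin-repeat protein induced by HIF, had values on 14 arrays, 1 of them imputed. It ran from -1.54 to 0.50 (median -0.13) in adult HFD and from -0.05 to 1.69 (median 0.96) in adult LFD tumors. Its difference was -1.42 ± 0.31. Car9, a carbonic anhydrase of the cell surface, ran from -0.78 to 1.36 against 0.017 to 1.87, with a difference of -0.99 ± 0.29. All of these ranges overlapped between the diets. Pgk1, a kinase of glycolysis, had values on 15 arrays and a difference of -0.95 ± 0.23. The deposited position of its probe (chr3:57906830-57906894 on mm9) is also that of the probe of the predicted gene Gm5537 (chr3:57906829-57906888, difference -1.03 ± 0.28), so these values may come from near-identical copies and cannot be assigned to one of them.

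Other hypoxia-induced genes were listed after these values had been seen, so their counts describe them and test nothing. Of 32 tested, 26 were lower and 6 higher in adult HFD tumors, with a median of -0.29 beside 0.0053 over all genes. At an unadjusted p under 0.05, 6 were lower (the 4 above, the clock repressor Bhlhe40 at -0.66 ± 0.22 and the pyruvate dehydrogenase kinase Pdk1 at -0.46 ± 0.18) and 0 higher. Over all genes the shares at that threshold were 1.5% lower and 1.89% higher. Vegfa, the main growth factor for vessels, had a difference of -0.57 ± 0.30, and the glucose transporter Slc2a1 one of -0.33 ± 0.35. Of the 9 HIF subunits and regulators tested 4 were higher and 5 lower, with a median of -0.006. Among them Hif1a had 0.57 ± 0.39, Epas1 0.42 ± 0.38, their partner Arnt 0.39 ± 0.15 and Siah2, a ubiquitin ligase for the hydroxylases, -0.24 ± 0.14. The mean of the 13 listed genes measured on every array, centered over the tumors, ran from -0.67 to 0.34 in adult HFD and from -0.23 to 0.71 in adult LFD tumors, so single tumors of both diets overlapped. Within session 3 the list median was -0.073 and Car9 had -0.047.

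**Figure D1:**
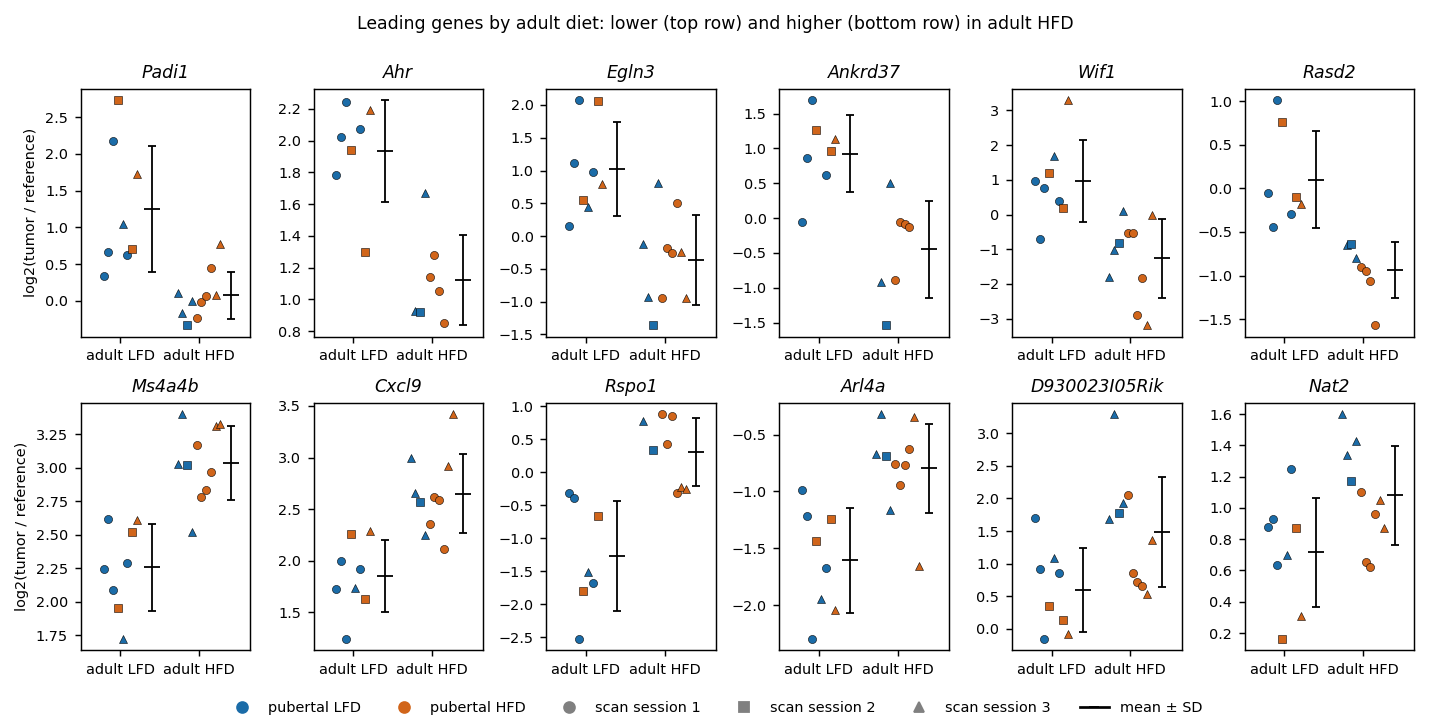
Log2 ratio of tumor over reference (y axis) by adult diet (x axis) for the first 6 leading genes of each direction, with 1 point per tumor, colored by pubertal diet and shaped by scan session, and bars for the mean ± SD. Rasd2 and Rspo1, measured on 14 and 15 arrays, show no overlap between the 2 adult diets, whereas for Egln3 and Wif1 the ranges overlap.

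Padi1, an enzyme of keratinizing cells that turns arginine into citrulline, had the smallest p on the lower side (unadjusted p = 0.000148). It ran from -0.34 to 0.78 (median 0.034) in adult HFD and from 0.33 to 2.73 (median 0.88) in adult LFD tumors. No adult HFD tumor lay above the adult LFD median, and the difference was -1.29 ± 0.27. Wif1, a secreted protein that binds and blocks Wnt ligands, ran from -3.19 to 0.093 (median -0.93) against -0.70 to 3.29 (median 0.86). Its difference, -2.24 ± 0.54, was the largest of the 24 leading genes and was -1.51 in pubertal LFD and -3.05 in pubertal HFD. Ahr, the receptor through which DMBA induces the enzymes that activate it, had values on 14 arrays, from 0.85 to 1.67 (median 1.05) in adult HFD and from 1.30 to 2.24 (median 2.02) in adult LFD tumors. The groups overlapped, and the difference was -0.79 ± 0.16. Rasd2, a small GTPase, had values on 14 arrays, from -1.57 to -0.63 in adult HFD and from -0.44 to 1.01 in adult LFD tumors with no overlap. Differences were -1.66 ± 0.42 for Fxyd4, a regulator of the sodium pump, -1.30 ± 0.37 for Espn, an actin bundler, -0.40 ± 0.10 for Tecpr2, an autophagy protein, and -0.52 ± 0.15 for the predicted gene Gm11110.

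On the higher side, Ms4a4b, a membrane protein of T cells, had the smallest p of all genes (unadjusted p = 7.35e-05). It ran from 2.52 to 3.40 (median 3.03) in adult HFD and from 1.73 to 2.62 (median 2.26) in adult LFD tumors. Its difference was 0.76 ± 0.15, and its second probe gave 0.44 ± 0.23. Cxcl9, a chemokine that interferon-γ induces and that attracts T cells, ran from 2.11 to 3.42 (median 2.60) against 1.24 to 2.29 (median 1.83), with differences of 0.76 ± 0.18 and, at its second probe, 0.85 ± 0.36. For both genes all 10 adult HFD tumors lay above the adult LFD median, while the ranges overlapped. Among T cell markers 1 of 14 was higher and 13 were lower, with a median of -0.12, 0.28 in pubertal LFD and -0.70 in pubertal HFD. Lck, a kinase of T cells, had a difference of -0.55 ± 0.50. HFD-LFD replicate 2 had the highest T cell mean of all tumors (2.29), and without it the median of the list was 0.19. Ear2 and Rnase6, ribonucleases of myeloid cells, had differences of 1.62 ± 0.43 and 0.50 ± 0.14. Ear2 had values on 14 arrays, and it has near-identical relatives that its probe could also report.

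Rspo1, a secreted amplifier of Wnt signals, was the 1 gene higher in adult HFD tumors without overlap. In LFD tumors its values were -0.32, -0.40, -2.53, -1.52 and -1.68, and in the HFD-LFD tumors measured they were -1.80 and -0.66. In the LFD-HFD tumors measured they were 0.78 and 0.33, and in HFD tumors they were 0.88, 0.42, 0.86, -0.31, -0.23 and -0.25. The highest adult LFD tumor (-0.32) lay just below the lowest adult HFD tumor, and the difference was 1.65 ± 0.38. Other differences on this side were 0.82 ± 0.20 for the small GTPase Arl4a, 0.88 ± 0.22 for the membrane protein Lrrn1, 0.84 ± 0.23 for Agmo, which cleaves ether lipids, and 0.93 ± 0.24 for the peroxisomal protein Hsdl2. Lrrn1 and Agmo had values on 14 arrays and Hsdl2 on 15, and 2 values of Lrrn1 and 1 of Agmo were imputed. Lrrn1 was well above background in the tumor channel on 12 of 18 arrays, dimmed ones included. Nat2, an arylamine acetyltransferase, had 0.47 ± 0.12 and the transcript D930023I05Rik 1.10 ± 0.28.

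Wnt and aryl hydrocarbon receptor genes were likewise listed after the values of Wif1, Rspo1 and Ahr had been seen. Of 9 secreted Wnt antagonists tested, 7 were higher (median 0.52), and the lower ones were Wif1 and Notum (-0.39 ± 0.31). Sfrp2 and Sfrp1, which bind Wnt ligands, had differences of 0.70 ± 0.30 and 0.68 ± 0.39. Of 11 targets of Wnt/β-catenin, 10 were lower (median -0.31), led by Tcf7 (-1.52 ± 0.47) and Lef1 (-0.89 ± 0.37), DNA-binding partners of β-catenin that T cells also express. Rspo1 was the 1 of 7 R-spondins and receptors that was higher. In the aryl hydrocarbon receptor list 5 of 8 were higher (median 0.15). Cyp1b1, which activates DMBA, had a difference of -0.66 ± 0.30, and the receptor's targets Nqo1, Tiparp and Ahrr had 0.20 ± 0.27, 0.14 ± 0.31 and 0.17 ± 0.18.

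The 24 leading genes were also compared within scan sessions. With session as a block, 24 of 24 had the same sign (85.8% of all genes). Within session 1 it was 23 of 24 (67.6% of all genes), the exception being Nat2 (-0.084), and within session 3 it was 15 of the 15 with a value (59.7% of 14742 genes). These arrays are among those that chose the genes, so the counts are a description. Within session 1 the difference was -1.30 for Egln3, -0.89 for Padi1, -1.80 for Wif1 and 0.63 for Ms4a4b. In that session adult diet, pubertal diet and slide cannot be told apart. Within session 3 it was -0.93 for Egln3, -1.18 for Padi1, -3.67 for Wif1 and 1.001 for Ms4a4b. Some leading genes had values near 0 within a session. Espn had -0.10 and Pgk1 -0.11 within session 3, and D930023I05Rik had 0.24 within session 1.

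Genes of lipid handling were listed by pathway to see whether the fat in the adult diet was mirrored there. No gene of these lists passed the test. In fatty acid synthesis 17 of 27 were higher, with a median of 0.094, and the smallest p belonged to the elongase Elovl5 (0.32 ± 0.20) and to G6pdx (0.58 ± 0.35), which supplies NADPH. Fatty acid oxidation and PPAR targets had 33 of 45 higher and a median of 0.084, with the electron carrier Etfa at 0.24 ± 0.11. Cholesterol synthesis had 8 of 27 higher and a median of -0.12, with Hsd17b7 at -0.67 ± 0.36 and Acat2 at -0.22 ± 0.13. LXR targets had 13 of 19 higher and a median of 0.084, with the cholesterol exporter Abca1 at 0.29 ± 0.13 and Apoe at 0.56 ± 0.37. These 4 medians changed sign in at least 1 alternative analysis each. Glucose transport and glycolysis had 20 of 27 lower and a median of -0.21. That median changed sign in 2 alternatives and ran from -0.33 to 0.29 over all of them. The lactate exporter Slc16a3 had -1.23 ± 0.41 and the lactate dehydrogenase subunit Ldhb 0.44 ± 0.17. This list shares genes such as Pgk1 with the hypoxia list. Insulin and IGF signaling was even (14 higher, 12 lower).

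Fat cell genes differed more in size. Of 16 adipocyte markers, 15 were higher in adult HFD tumors, with a median of 0.99 (1.35 in pubertal LFD and 0.47 in pubertal HFD). At an unadjusted p under 0.05, 4 were higher, beside 1.89% of all genes, and none passed the adjusted test. Adrb3, the adrenergic receptor of fat cells, ran from -1.20 to 3.19 (median -0.15) in adult HFD and from -2.53 to -0.00041 (median -1.10) in adult LFD tumors, with a difference of 1.50 ± 0.46. The groups overlapped. The droplet coat proteins Plin1 and Plin4 had differences of 1.22 ± 0.51 and 1.64 ± 0.64, and the hormone adiponectin (Adipoq) one of 1.54 ± 0.72. Fabp4, Cd36 and Lpl, which handle fatty acids in fat cells and at vessels, had 1.10 ± 0.55, 1.03 ± 0.54 and 0.89 ± 0.49. Within session 3 these were -0.85, -0.12 and -0.062, Plin1 had 0.29, and the median of the list was 0.46. The mean of the 8 markers measured on every array ran from -0.95 to 2.40 (median 0.069) in adult HFD and from -1.55 to 0.47 (median -0.48) in adult LFD tumors. LFD-HFD replicate 3 was highest and LFD replicate 3 lowest, and without the former the median of the list was 0.45. Lipe, the hormone-sensitive lipase, was the 1 gene called for adult diet with scan session as a block. Its difference was 0.99 ± 0.12 with the block (limma adjusted p = 0.0488), beside 0.51 ± 0.36 without it. Lipe had no value on slide 7, so session 3 held 1 adult LFD tumor with a value (LFD replicate 4, -2.52). Session 2 held 1 adult HFD tumor (LFD-HFD replicate 3, -0.097), and in session 1 adult and pubertal diet coincided. Lipid lists and adipocyte markers share genes, and the part of fat tissue in the lipid values was not tested.

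**Figure D2:**
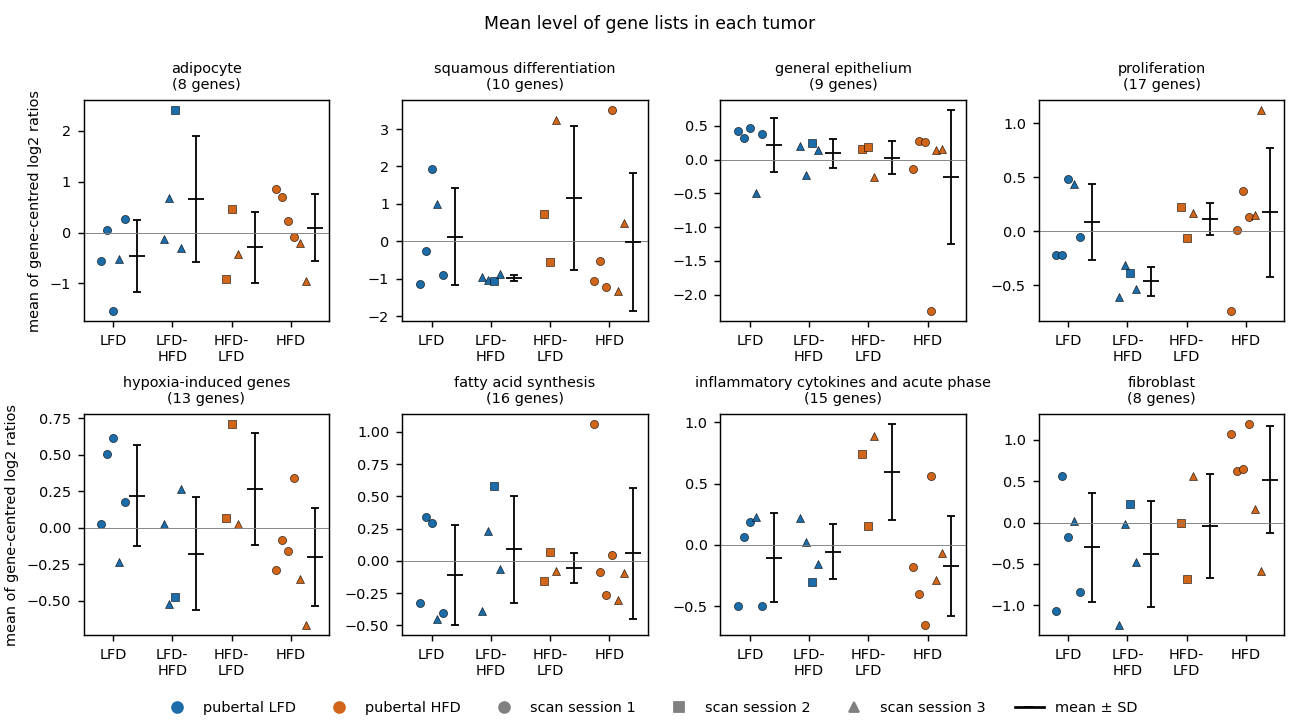
Mean centered log2 ratio of the genes of a list that were measured on every array (y axis), by diet group (x axis), with 1 point per tumor, colored by pubertal diet and shaped by scan session, and bars for the mean ± SD. The adipocyte mean ran from -0.95 to 2.40 in adult HFD and from -1.55 to 0.47 in adult LFD tumors, so the groups overlap.

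The largest median of any list went the other way and was that of squamous differentiation. Of 19 keratinization genes 15 were lower in adult HFD tumors, with a median of -1.21 (-1.24 in pubertal LFD and -1.14 in pubertal HFD). Klk7, a protease of the cornified layer, alone had an unadjusted p under 0.05 (-1.58 ± 0.71), and the stress keratins Krt6a and Krt16 had -1.34 ± 0.64 and -2.21 ± 1.21. Klk7 was well above background in the tumor channel on 12 of 18 arrays, had 3 imputed values, and had a difference of 0.545 within session 1. The spread within each diet was wide. The mean of 10 genes ran from -1.32 to 3.50 in adult HFD and from -1.14 to 3.24 in adult LFD tumors, and the highest tumors were HFD replicate 4 and HFD-LFD replicate 3, 1 of each adult diet. Within session 1 the median turned to 0.57, and without slides 6 and 7 it was -0.16. HFD replicate 4 also had the lowest general epithelial mean (-2.25) and luminal mean (-2.05), and without it the squamous median was -1.68. Prr9, a gene of cornified cells, was the 1 gene called within session 3 (-5.65 ± 0.36, limma adjusted p = 0.0202), where LFD and HFD-LFD had 1 tumor each.

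**Figure D3:**
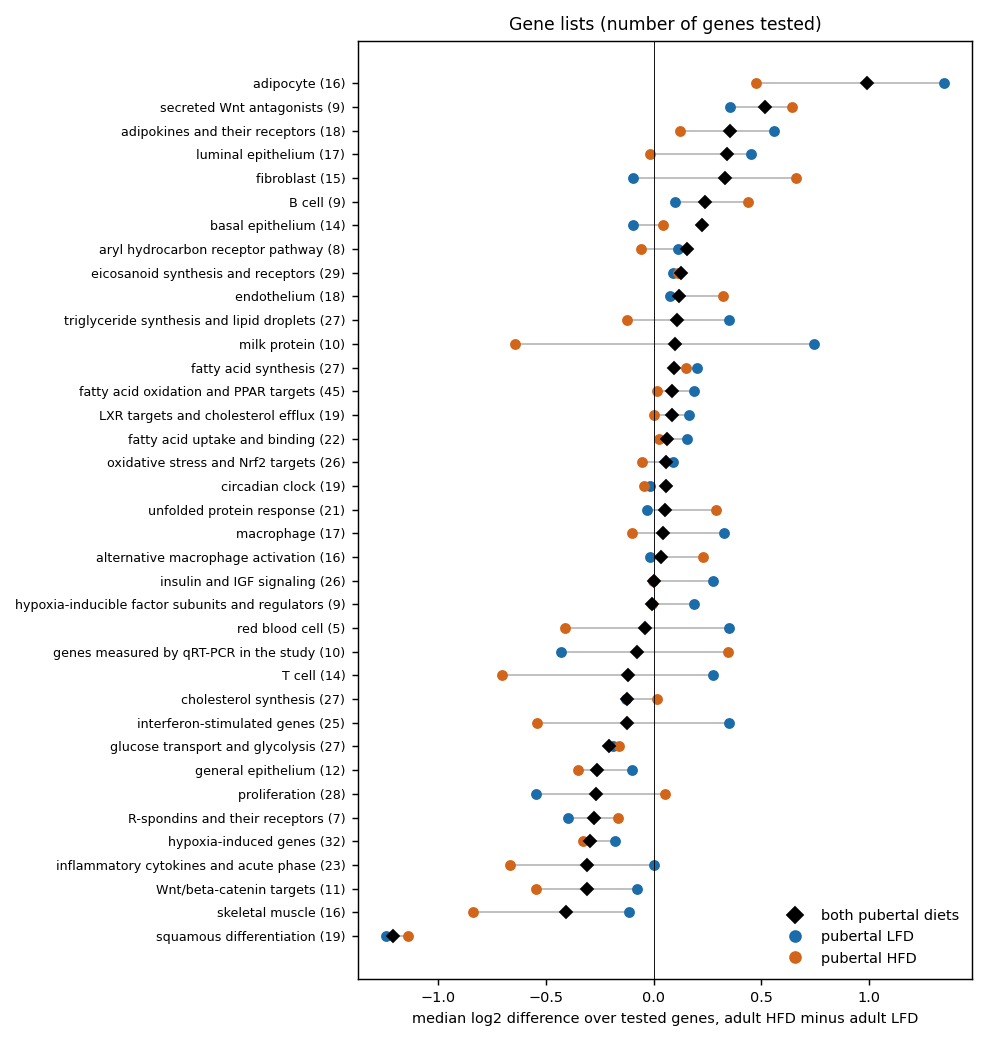
Median log2 difference of adult HFD minus adult LFD tumors (x axis) over the tested genes of each list (rows), for all 18 tumors and for each pubertal diet. The adipocyte list lies highest at 0.99 and the squamous list lowest at -1.21.

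Among inflammatory cytokines 16 of 23 were lower, with a median of -0.31, -0.00045 in pubertal LFD and -0.67 in pubertal HFD. The gene of smallest p in this list was Cxcl9, described above as higher (0.76 ± 0.18). The cytokines Tnf and Il6 had differences of -0.60 ± 0.19 and -0.62 ± 0.26, the neutrophil chemokine Cxcl1 -0.78 ± 0.31 and the nitric oxide synthase Nos2 -0.74 ± 0.34. In alternative macrophage activation 10 of 16 were higher, with a median of 0.034. The lectin Clec10a (1.05 ± 0.38) and the secreted Retnla (1.50 ± 0.69) had values of one sign and arginase Arg1 (-1.24 ± 0.50) of the other. Macrophage markers had a median of 0.044 and interferon-stimulated genes one of -0.13, the latter 0.35 in pubertal LFD and -0.54 in pubertal HFD. Eicosanoid genes had 21 of 29 higher and a median of 0.13, and Alox5, which starts leukotriene synthesis, had 0.45 ± 0.27.

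Of 28 proliferation genes 26 were lower in adult HFD tumors, with a median of -0.27, -0.55 in pubertal LFD and 0.05 in pubertal HFD. The topoisomerase Top2a had a difference of -0.60 ± 0.20 and the cyclin Ccna2 one of -0.57 ± 0.22. The mean of 17 of these genes overlapped between the diets, from -0.74 to 1.12 in adult HFD and from -0.22 to 0.49 in adult LFD tumors. In the unfolded protein response the stress factor Atf3 had -1.01 ± 0.30 and the sensor Ern1 0.76 ± 0.27, with a list median of 0.053. Hspa5 and Xbp1 of this list were not tested. Medians were 0.059 for Nrf2 targets and 0.056 for the clock. Another list took the 14 genes chosen for qRT-PCR, of which 10 were tested, 7 lower and 3 higher. Their median was -0.43 in pubertal LFD and 0.34 in pubertal HFD. Among them the growth factor Tgfa had -0.42 ± 0.25, β-catenin (Ctnnb1) -0.30 ± 0.17, the cyclin Ccnd2 0.73 ± 0.60 and the apoptosome protein Apaf1 0.44 ± 0.29. Tgfa had -0.94 in pubertal LFD and 0.16 in pubertal HFD, and Ccnd2 had -0.50 and 1.91, with -2.12 within session 3. Adipokines had 12 of 18 higher (median 0.35), with the peptide Apln at -1.01 ± 0.46.

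Among markers of other cell types, 14 of 15 fibroblast genes were higher (median 0.33). Their median was -0.097 in pubertal LFD and 0.66 in pubertal HFD, and it was 1.32 within session 1 and -0.86 within session 3. Higher values were also found for 13 of 18 endothelial genes (median 0.12, 0.077 in pubertal LFD and 0.32 in pubertal HFD), where the endothelial factor Sox17 had 0.65 ± 0.22. Basal and luminal epithelial markers had medians of 0.23 and 0.34, in pubertal LFD -0.097 and 0.45 and in pubertal HFD 0.044 and -0.018, with Snai2 at 1.05 ± 0.36 and the estrogen receptor Esr1 at 0.78 ± 0.43. General epithelial genes had 10 of 12 lower (median -0.26), with Cdh1 (E-cadherin) at -0.33 ± 0.21. All 16 skeletal muscle genes were lower (median -0.41), and LFD replicate 2 and HFD-LFD replicate 1 held the 2 highest muscle means (2.27 and 1.93). B cell, milk protein and red blood cell genes had medians of 0.24, 0.099 and -0.042. Of the genes listed, 9 of 15, 10 of 12 and 5 of 11 were tested. Those not tested included Ms4a1, Pax5 and Blk (B cell), Csn2 and Csn1s2a (milk protein) and Hba-a1, Hba-a2 and Hbb-b2 (red blood cell). Col3a1, Lum and Thy1 (fibroblast) and Krt18, Krt19 and Pgr (luminal epithelium) were also not tested. The median of the milk protein genes was 0.74 in pubertal LFD and -0.64 in pubertal HFD. The part of these cell types in the leading genes was not tested.

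The adult diet difference was then taken within each pubertal diet. Among mice on LFD in puberty (LFD-HFD minus LFD), limma called 71 genes at an adjusted p under 0.05, of which 39 rose (0.194%) and 32 fell (0.159%). That count was 0 with scan session as a block, 0 without LFD-HFD replicate 2 and 213 without LFD replicate 4. Among mice on HFD in puberty (HFD minus HFD-LFD) it called 0 genes (0%), with a smallest adjusted p of 0.057 and 2322 genes at an unadjusted p under 0.05. The difference between both effects, the interaction term, passed for 735 genes. The effect was higher in pubertal LFD than in pubertal HFD for 478 of them (2.37%) and lower for 257 (1.28%). All 735 had opposite signs in the 2 pubertal diets. Over all genes 35.8% had the same sign, and the effects correlated at -0.2 across genes, which are not independent replicates, with no array in common.

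**Figure D4:**
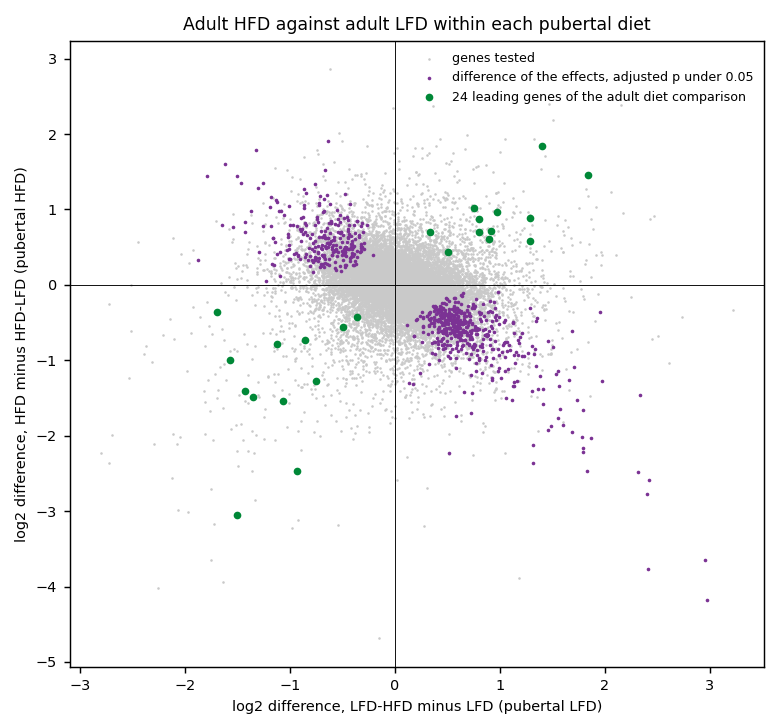
Log2 difference of adult HFD minus adult LFD tumors in pubertal LFD (x axis) against pubertal HFD (y axis), with 1 point per gene. The 735 genes whose effects differed lie in the upper left and lower right, and the 24 leading genes lie where both effects have the same sign, as the rule that chose them required.

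Aldh18a1, an enzyme of proline synthesis, had the smallest p of this interaction. Its values were 0.62, 0.63, 0.66 and 0.65 in LFD, -1.06, -1.28 and -1.10 in LFD-HFD, -0.067, -0.069, 0.14 and -0.73 in HFD and -1.52, -1.81 and -1.54 in HFD-LFD tumors, with those of slide 6 missing. Both switched groups lay below both groups kept on 1 diet. The unswitched values all came from session 1 and the switched ones from sessions 2 and 3, so switch and session cannot be told apart here. It fell by 1.79 in pubertal LFD (limma adjusted p = 0.00653), had 1.44 in pubertal HFD (adjusted p = 0.0572), and its effects differed by -3.23 (adjusted p = 0.000398). Pde5a, which breaks down cyclic GMP, stood the other way, with effects of 1.74 and -1.53. Ints8, a subunit of the Integrator complex, had -1.05 and 0.92, and the histone gene H4c4 2.32 and -2.49, though histone copies are near-identical and may share this probe. The effects also differed for Zfp646 (-1.72), a zinc finger gene, and for Cyp2d10 (2.74), a cytochrome P450. Cyp2d10 had no value on slide 7, which left 2 HFD-LFD tumors (-2.52 and -1.50), both on slide 5 of session 2. Its values in the other groups ran from -5.02 to -3.67, with the LFD-HFD tumors at -4.18 and -3.97. Its difference therefore rests on 2 tumors of 1 slide.

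An effect of opposite sign in the 2 pubertal diets is the same contrast as switched against unswitched diets, and this followed the scan sessions, since session 1 held unswitched tumors only and session 2 switched tumors only. Of the 735 genes 479 had a value with session as a block. With that block 0 of 14742 genes passed (limma), with 1874 at an unadjusted p under 0.05. All 479 kept their sign, on the same arrays that chose them. The 2 effects correlated at -0.423 across genes with the block, beside -0.2 without it, but with the block both rest on shared session terms. For the genes without a value under the block, the switched diets and the session cannot be told apart. Aldh18a1, Pde5a, Ints8, H4c4 and Zfp646 are among these. Tug1, a long noncoding RNA measured on all 18 arrays, had effects of -1.50 and 1.44 (adjusted p of the difference 0.00395, limma). It was chosen for this contrast on the same arrays, and its values describe that choice.

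**Figure D5:**
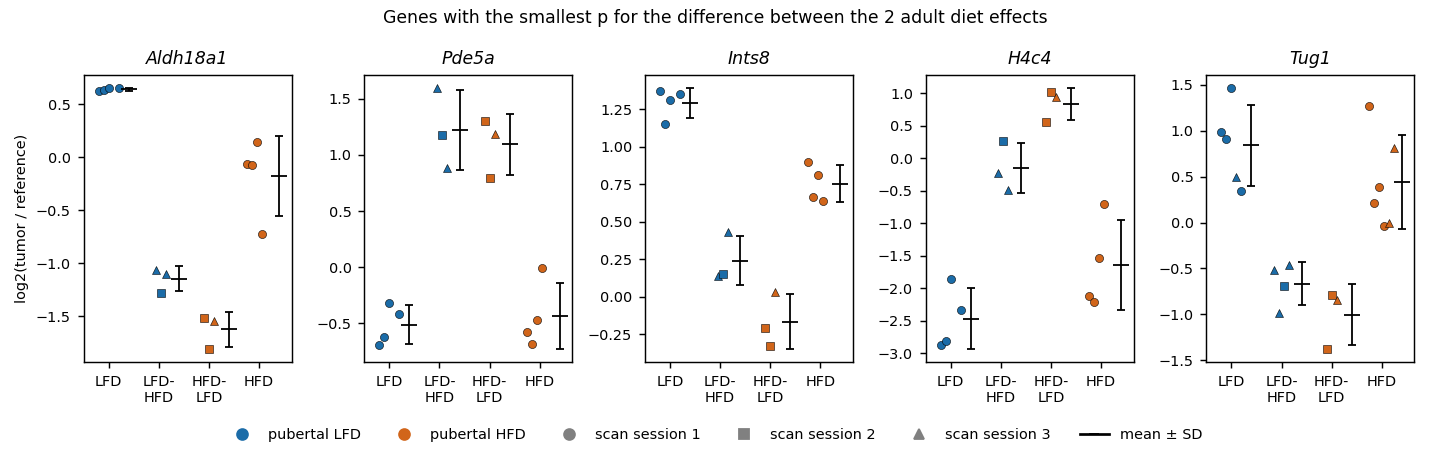
Log2 ratio of tumor over reference (y axis) by diet group (x axis) for the 5 genes with the smallest p for the difference between the effects, with 1 point per tumor, colored by pubertal diet and shaped by scan session, and bars for the mean ± SD. The genes were chosen for this pattern, and for Tug1 all 7 switched tumors lie below all 11 unswitched ones. For Aldh18a1, Pde5a, Ints8 and H4c4 every unswitched tumor shown was of session 1.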

How the data were processed

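The authors hybridized tumor RNA and a reference RNA to Agilent arrays of 2 colors and deposited scanner files with the mean and background intensity of each spot and a log10 ratio. The file headers name Feature Extraction 11.0.1.1 and the submitters' processing notes 8.5.1.1. The deposited log10 ratio was used only as an alternative. In R 4.3.3 with limma 3.58.1, intensities were background-corrected (normexp, offset 50) and loess-normalized within arrays. Dimmed rows were masked and left missing, flagged spots were left out, and low-signal or flagged values of probes that passed were imputed from 10 nearest neighbors. Probes over a signal of 10 in both channels on 80% of unmasked arrays were kept (25947 of 39429), and the probe of highest mean intensity stood for each of 20139 genes. Of the probes left out, 1149 were lost through outlier flags. The model held adult and pubertal diet, and a model of 4 group means gave the effects within pubertal diets and their difference. Gene names came from the accession for 27317 probes, from symbols for 3522, from older symbols for 551 and from the files for 8039. Probe positions are those in the files (mm9).

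Groups came from the labels. Replicate numbers follow accession order and pair nothing. The 12 leading genes per direction were those with the smallest p and the same sign in both pubertal diets, as no gene was called. Each list was named by its 2 genes of smallest p and by members described by role. Some genes that these rules name are not reported here. Members and lists were chosen with earlier results of these data known, and 6 of 37 lists were written after values had been seen. The fit was tested on simulated data. The number of arrays limits the precision.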

Additional observations from a re-analysis of the deposited data

Results flagged for a closer look

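A tumor far from the others of its group was looked for in 190 groups of values by Dixon's criterion, which chance meets in about 1 in 20 groups, and 11 were found (5.79%). Ankrd37 was -0.895 in HFD replicate 1, beside -0.132 to -0.0633 in the others measured. Espn was 0.252 in LFD-HFD replicate 4 (others -1.3 to -1.18), and D930023I05Rik was 3.29 in LFD-HFD replicate 2 (others 1.68 to 1.93). Among list means, HFD replicate 1 had 1.06 for fatty acid synthesis (others -0.304 to 0.0447) and -0.381 for the qRT-PCR genes (others 0.154 to 0.458). HFD replicate 4 had 1.06 for cholesterol synthesis (others -0.317 to 0.0894) and -2.25 for general epithelium (others -0.14 to 0.282), and HFD replicate 6 had 1.3 for R-spondins and their receptors (others -0.817 to -0.0595). In LFD tumors, milk protein genes had 1.23 in replicate 3 (others -1.04 to -0.57), skeletal muscle genes 2.27 in replicate 2 (others -0.883 to -0.00834) and general epithelium -0.5 in replicate 4 (others 0.323 to 0.473).

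The adult diet effect differed between pubertal diets for 735 genes by the interaction term. Among the named genes the effect in pubertal LFD minus that in pubertal HFD was -3.23 for Aldh18a1, 3.26 for Pde5a, -1.72 for Zfp646, -1.98 for Ints8, 2.74 for Cyp2d10, 4.80 for H4c4 and -2.94 for Tug1. It was -2.31 for the probe named NAP029896-1 and 6.60 for the transcript ENSMUST00000099042. Switched diets and scan session largely coincide in these arrays, as given above.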

How the results depend on the processing

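For adult diet, 0 genes were called in every alternative except scan session as a block (1, Lipe), session 3 alone (1, Prr9) and unadjusted p (683), and also with each tumor left out in turn (0 to 0). Counts for pubertal LFD (71), pubertal HFD (0) and their difference (735) moved more, and the cause was not tested. With dimmed rows kept they were 0, 1 and 387, with the tumor channel alone 3, 7 and 356, with array weights 1646, 1259 and 3625, with all 24 arrays 433, 51 and 1654, within session 3 17, 65 and 4, and at unadjusted p 3107, 2322 and 4160. The scanner software's ratio gave 23 and 2, and median centering 0 and 14, for the 2 pubertal diets. For pubertal LFD and the difference, imputing masked values gave 37 and 1134, normexp on all spots 0 and 207, session as a block 0 and 0, slide as a random block 4 and 340, slide as a fixed block 3 and 0, and leaving out slides 6 and 7 gave 0 and 8. Low-signal values left missing gave 41 for pubertal LFD, and no background correction gave 3 and the mean of a gene's probes 7 for pubertal HFD. Without single tumors the counts ran from 0 (LFD-HFD replicate 2) to 213 (LFD replicate 4) in pubertal LFD, from 0 to 116 (HFD replicate 4) in pubertal HFD and from 276 (LFD-HFD replicate 2) to 1257 (HFD replicate 4) for the difference. The split of the difference, 478 higher and 257 lower, was 500 and 46 with median centering. Of 941 values of leading genes under alternatives, Nat2 within session 1 (-0.084) reversed, and NAP029896-1 in pubertal LFD was 0.062 with the tumor channel alone. List medians changed sign in at least 1 alternative for 31 of 37 lists, and kept it for 6 (adipocyte, adipokines, proliferation, hypoxia-induced, Wnt antagonists and R-spondins). No paired analysis was possible because the replicate numbers follow accession order. Within session 3 an arm with 1 tumor is assumed to vary like the others. Probes under background limit what could be tested: 74 listed genes were not tested.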
